A study of Homo sapiens with 10 samples.

Results

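The ErbB receptor genes EGFR, ERBB2 and ERBB3, the ligand genes AREG, EREG, HBEGF and TGFA, and the ERK feedback genes DUSP6, SPRY2 and SPRY4 were measured by RNA-seq in EA.hy926 and HMEC-1, both of them endothelial lines. These 10 genes were taken by symbol, through their Ensembl identifiers in GENCODE 44, from the 60448 genes of the count table, and all 10 were found. EA.hy926 is a single hybrid line made by fusing human umbilical vein endothelial cells with lung carcinoma A549 cells, whereas HMEC-1 derives from microvessels of the skin and was immortalized with SV40 large T antigen. Both were untreated, labelled as wild type and grown to a confluent monolayer before trypsin detachment and RNA extraction. Each line was sequenced as 5 libraries, given as independent biological replicates. The EA.hy926 medium was Advanced DMEM with 5% FBS, whereas HMEC-1 cells grew in MCDB 131 with 10% FBS to which EGF (10 ng/mL) and hydrocortisone (1 μg/mL) had been added. EGF is a ligand of EGFR, and for all of these genes the effect of the line and that of the medium cannot be told apart.

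ErbB receptors are tyrosine kinases of the cell surface that pair up when a ligand binds. EGFR binds EGF, AREG, EREG, HBEGF and TGFA, ERBB3 and ERBB4 bind neuregulins, and ERBB2 has no known ligand of its own and acts as a partner of the others. Ligands are made as membrane precursors and cut loose by ADAM proteases. The active receptors switch on RAS, RAF, MEK and ERK, and ERK in turn induces its own inhibitors, among them the ERK phosphatase DUSP6 and the Sprouty proteins SPRY2 and SPRY4, so that mRNA of these inhibitors is widely used as a readout of ERK output.

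The total count per library was 34846046 to 39899324 in EA.hy926, against 33391640 to 43877224 in HMEC-1. Of 12 endothelial marker genes all were tested, and the summed level was 4777 to 5443 CPM (counts scaled to library size, with TMM factors) in EA.hy926, against 1747 to 1798 CPM in HMEC-1. PECAM1, CDH5 and EGFL7 led in EA.hy926, where CLDN5 had only 0 to 5 counts (51 to 65 in HMEC-1). Of 10 epithelial markers, CDH1, ESRP1 and GRHL2 had at most 2 counts in any library, while the keratins KRT7, KRT8 and KRT18 made up most of 1275 to 1389 CPM in EA.hy926, against 429 to 491 CPM in HMEC-1. KRT19, CLDN7 and CLDN4 went the other way and were called lower in EA.hy926 by the thresholds given below. Of the 7 epithelial markers tested 3 were called lower (16.4% of all genes tested) and 2 higher (19.1% of all genes tested). The 10 fibroblast and mural markers summed to 413 to 471 CPM in EA.hy926, against 526 to 551 CPM in HMEC-1, with LUM and DCN at 0 in every library. These sums were made of different genes, since RGS5 (430 CPM against 5.05 CPM) was higher in EA.hy926 and COL1A1 (0.318 CPM against 358 CPM) lower. Of the 7 tested 2 were called higher (19.1% of all genes) and 5 lower (16.4% of all genes). Of 9 tested glucocorticoid target genes 7 were called lower in EA.hy926, FKBP5 among them (16.4% of all genes), and TSC22D3 was called higher. The 10 genes of that list, of which MT2A made up most in EA.hy926 (946 CPM, and 523 CPM in HMEC-1), summed to 1188 to 1338 CPM in EA.hy926, against 1506 to 1629 in HMEC-1. The part of these marker differences in the results that follow was not tested. In bulk RNA, fewer cells expressing a gene and less mRNA per cell cannot be told apart.

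The promoter sequences of DUSP6, SPRY4, AREG and ERBB2 are shown first, as examples of feedback genes higher in EA.hy926, a ligand gene lower there, and a receptor gene with ETS motifs. RefSeq (GRCh38.p14) gave 13 annotated start sites for 9 of the 10 genes, all but ERBB3, and the 250 bases before each start were searched on both strands for the ETS motifs CCGGAAGT and ACCGGAAG, the AP-1 motif TGANTCA and the CRE motif TGACGTCA. ETS and AP-1 factors are activated by ERK. Of 35116 such windows in the genome, 3.42% held CCGGAAGT, 1.78% ACCGGAAG, 6.57% TGANTCA and 1.65% TGACGTCA. DUSP6 (chr12:89352502-89352751, minus strand) and SPRY4 (chr5:142324248-142324497, minus strand) were higher in EA.hy926 and held no match, AREG (chr4:74444886-74445135, plus strand) was lower and held the CRE motif at -65, and ERBB2 (chr17:39687844-39688093, plus strand) was the only one of the 9 with ETS matches. Positions are those of the first motif base, counted back from the start. The ERBB2 window held CCGGAAGT at -27 and -14, ACCGGAAG at -15, which overlaps the latter, and the AP-1 motif at -222. The sequences read 5′ to 3′ on the gene's strand, and capitals mark the motif matches:
DUSP6: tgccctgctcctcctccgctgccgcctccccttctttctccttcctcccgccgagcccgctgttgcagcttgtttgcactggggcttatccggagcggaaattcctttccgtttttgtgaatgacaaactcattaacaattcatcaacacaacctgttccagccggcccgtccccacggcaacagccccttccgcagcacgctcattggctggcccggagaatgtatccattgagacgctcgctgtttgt
SPRY4: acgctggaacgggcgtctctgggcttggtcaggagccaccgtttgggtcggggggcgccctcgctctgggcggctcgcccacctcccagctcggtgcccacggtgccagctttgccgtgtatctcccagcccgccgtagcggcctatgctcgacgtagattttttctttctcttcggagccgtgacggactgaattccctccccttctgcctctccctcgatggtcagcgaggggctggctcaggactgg
AREG: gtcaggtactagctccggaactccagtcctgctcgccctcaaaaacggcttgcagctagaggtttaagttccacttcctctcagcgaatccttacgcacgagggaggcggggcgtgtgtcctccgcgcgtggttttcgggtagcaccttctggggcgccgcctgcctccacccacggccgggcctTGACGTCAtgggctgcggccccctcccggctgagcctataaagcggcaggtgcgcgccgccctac
ERBB2: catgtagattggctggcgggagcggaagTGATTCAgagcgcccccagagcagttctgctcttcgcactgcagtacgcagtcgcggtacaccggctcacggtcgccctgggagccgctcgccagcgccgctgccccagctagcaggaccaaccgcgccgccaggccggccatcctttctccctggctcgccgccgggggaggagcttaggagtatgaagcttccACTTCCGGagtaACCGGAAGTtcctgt

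The RefSeq start sites used for SPRY4 and ERBB2 lie inside the GENCODE genes. The further EGFR start site of RefSeq at chr7:55109589-55109838 (window, plus strand) held AP-1 matches at -232 and -136, and the windows of EREG, HBEGF, TGFA and SPRY2 held none of the motifs. A match is a string of letters in a window, and whether a factor bound there was not measured.

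The lines were compared with edgeR's quasi-likelihood test on the counts, with Benjamini-Hochberg adjustment over the 16310 genes that passed the filter on low counts. The log2 fold change (log2FC) is that of EA.hy926 over HMEC-1, so that positive values stand for more mRNA in EA.hy926. A gene was called when its adjusted p was under 0.05 and its log2FC beyond 1 in either direction, the thresholds of the study. Of the 10 genes 9 passed the filter, all but EREG. The called genes were 5 of these 9, against 35.5% of all genes tested. DUSP6 and SPRY4 were called higher in EA.hy926 (2 of 9, with 19.1% of all genes called in this direction), and ERBB3, AREG and TGFA were called lower (3 of 9, with 16.4% of all genes). An adjusted p under 0.05 alone was found for all 9 and for 85.8% of all genes tested, and the CPM ranges of the lines did not overlap for 8 of the 9, all but SPRY2, and for 77.4% of all genes tested. These lines differ in most genes.

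**Figure D1:**
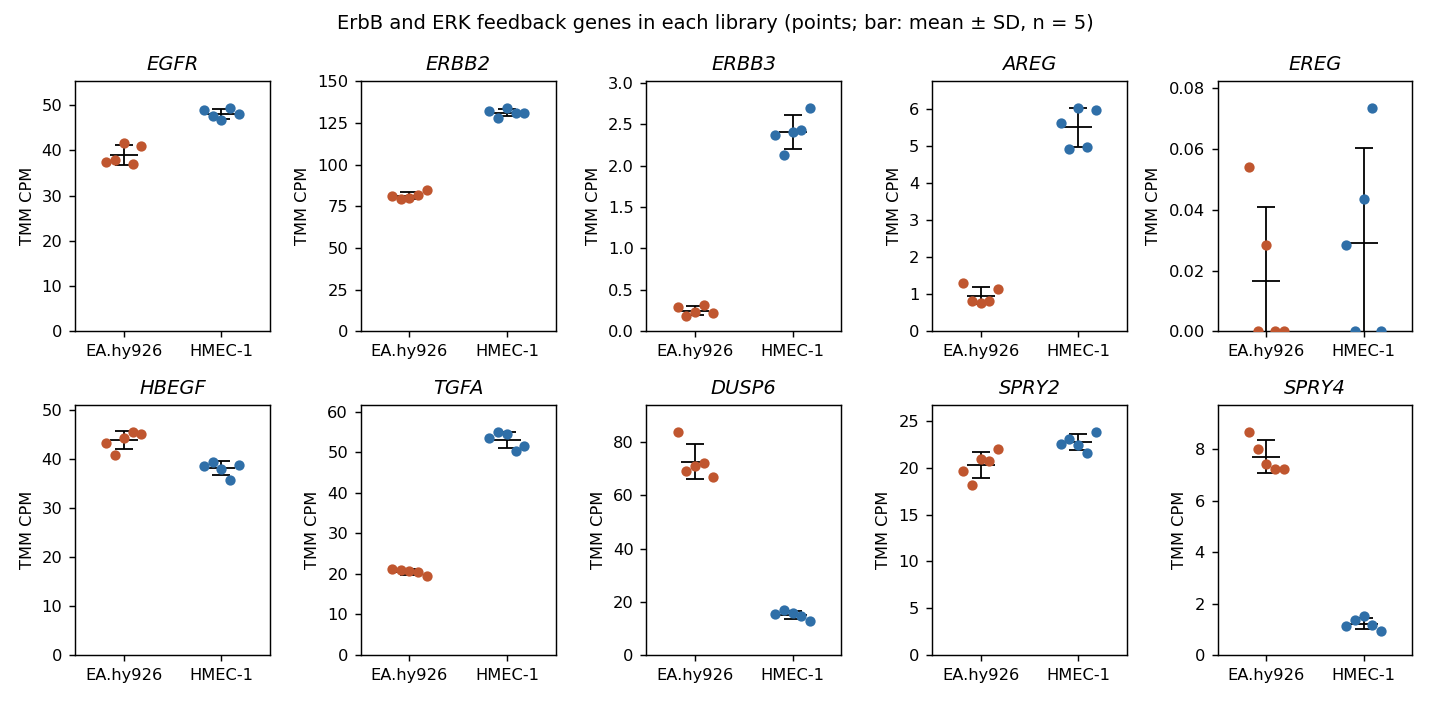
TMM-scaled CPM (linear axes from 0) of the 10 genes in each library, with 5 points per line in replicate order and bars for the mean ± SD. DUSP6 and SPRY4 lie higher in all EA.hy926 libraries, ERBB3, AREG and TGFA lie higher in all HMEC-1 libraries, and EREG is at 0 to 0.0736 CPM in both, where the lower end of its SD bars is cut off at 0.

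Among the receptors, ERBB3 was the only called gene. ERBB3 (ENSG00000065361, chromosome 12, 56076799 to 56103505), a neuregulin receptor with little kinase activity of its own, had 11, 6, 8, 12 and 8 counts in EA.hy926 replicates 1 to 5 and 83, 87, 111, 99 and 103 counts in HMEC-1. Every HMEC-1 library had over 6 times the counts of any EA.hy926 library. In CPM this was 0.247 ± 0.0561 (SD, n = 5) against 2.41 ± 0.200 (SD, n = 5), 9.56-fold lower in EA.hy926 (log2FC -3.26 ± 0.18 SE, edgeR-adjusted p = 2.9e-13). The value in EA.hy926 rests on 12 counts or fewer per library and is imprecise for that reason, although omitting any single library left the log2FC within -3.35 to -3.16.

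EGFR and ERBB2 were also lower in EA.hy926, by less than the fold change threshold. EGFR (ENSG00000146648, chromosome 7, 55019017 to 55211628), the receptor of EGF, had 37.4, 37.9, 41.6, 37.0 and 40.9 CPM in the EA.hy926 libraries and 49.0, 47.5, 46.7, 49.4 and 48.0 CPM in the HMEC-1 libraries. The highest EA.hy926 library lay below the lowest HMEC-1 library, and the difference was small (1.23-fold lower, log2FC -0.30 ± 0.037 SE, edgeR-adjusted p = 1.3e-07). ERBB2 (ENSG00000141736, chromosome 17, 39687914 to 39730426), the ligandless partner receptor, had 79.4 to 84.6 CPM (median library 81.4) in EA.hy926, against 128 to 134 CPM (median library 131) in HMEC-1. It was 1.61-fold lower in EA.hy926, with no overlap between the lines (log2FC -0.69 ± 0.026 SE, edgeR-adjusted p = 3.3e-16). Of its exonic bases, 6.93% are shared with MIEN1 and PGAP3.

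Of the fourth receptor gene, ERBB4, which encodes a neuregulin receptor, EA.hy926 libraries had 3 to 9 counts and HMEC-1 libraries 1 to 7, and it did not pass the filter. Per kilobase of exon, the scale on which genes of different length can be compared, ERBB2 made up 76.2 ± 0.980% of the summed level of EGFR, ERBB2 and ERBB3 in EA.hy926, against 79.7 ± 0.469% in HMEC-1 (mean ± SD, n = 5). EGFR made up 23.6 ± 1.01% and 19.0 ± 0.473%. ERBB3 contributed 0.204 ± 0.0476% in EA.hy926, against 1.29 ± 0.0995% in HMEC-1, so that in both lines nearly all ErbB receptor mRNA was ERBB2 and EGFR. The summed receptor level was 10.1 to 10.8 CPM per kilobase in EA.hy926, against 15.5 to 16.1 in HMEC-1.

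Of the EGFR ligands, AREG and TGFA were lower in EA.hy926, HBEGF was close between the lines and EREG was at the limit of detection in both. AREG (ENSG00000109321, chromosome 4, 74445136 to 74455005) encodes amphiregulin, a ligand of EGFR. It had 48, 27, 27, 31 and 42 counts in EA.hy926, while HMEC-1 had 197, 201, 278, 203 and 228 counts. Each HMEC-1 library had over 4 times the counts of each EA.hy926 library. The levels were 0.964 ± 0.238 CPM (SD, n = 5) and 5.50 ± 0.527 CPM (SD, n = 5), 5.68-fold lower in EA.hy926 (log2FC -2.50 ± 0.14 SE, edgeR-adjusted p = 1.8e-13). The EA.hy926 replicates were uneven, with replicates 1 and 5 above the rest.

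TGFA (ENSG00000163235, chromosome 2, 70447284 to 70554193), which encodes transforming growth factor alpha, had 21.3, 20.9, 20.6, 20.4 and 19.4 CPM in EA.hy926, while HMEC-1 had 53.6, 55.1, 54.5, 50.3 and 51.6 CPM. The replicates of each line lay close together and far from those of the other line. TGFA was 2.59-fold lower in EA.hy926 (log2FC -1.37 ± 0.038 SE, edgeR-adjusted p = 1.2e-18).

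HBEGF (ENSG00000113070, chromosome 5, 140332843 to 140346603), the heparin-binding ligand of EGFR and ERBB4, had 43.2, 40.9, 44.3, 45.6 and 45.1 CPM in EA.hy926, while HMEC-1 had 38.5, 39.4, 37.9, 35.7 and 38.8 CPM. The lowest EA.hy926 library lay just above the highest HMEC-1 library. The difference was 1.15-fold (log2FC 0.20 ± 0.037 SE, edgeR-adjusted p = 3.3e-05), and scaling by library totals alone, which shifted all genes by a median log2FC of -0.13, left it short of the p threshold (log2FC 0.07, edgeR-adjusted p = 0.0954). EREG (ENSG00000124882, chromosome 4, 74365145 to 74388749), which encodes epiregulin and lies beside AREG on the chromosome, had 2, 0, 1, 0 and 0 counts in EA.hy926, while HMEC-1 had 1, 0, 2, 3 and 0 counts. Both lines were at or below 3 counts, the highest number taken as the floor of detection, which is 0.0651 to 0.0904 CPM. No fold difference is given for EREG. Such floors cover counting error only, as no molecular identifiers are described for these libraries and reads may be copies of 1 molecule.

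Among the other ErbB ligand genes the differences lay mainly in NRG1 and NRG2, neuregulins that bind ERBB3 and ERBB4 and not EGFR. NRG1 (ENSG00000157168, chromosome 8) had 9940, 8848, 9390, 9959 and 9853 counts in EA.hy926, while HMEC-1 had 145, 147, 187, 170 and 155 counts. The means were 266 ± 3.80 CPM and 4.00 ± 0.230 CPM (SD, n = 5), 66.3-fold higher in EA.hy926 (log2FC 6.05 ± 0.037 SE, edgeR-adjusted p = 2.6e-29). By the size of its log2FC NRG1 ranked 1007 of 16310 genes tested. NRG2 had 39 to 60 counts per EA.hy926 library, while HMEC-1 had 4 to 13, 6.04-fold higher in EA.hy926 (log2FC 2.60 ± 0.26 SE, edgeR-adjusted p = 8.5e-09). EGF itself had 0 or 1 counts in every library of both lines. BTC had 0 to 7 counts per library, EPGN 0 to 5, NRG3 0 to 5 and NRG4 0 to 9, and with ERBB4 and EGF these 6 of the 8 further receptor and ligand genes did not pass the filter on low counts.

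**Figure D2:**
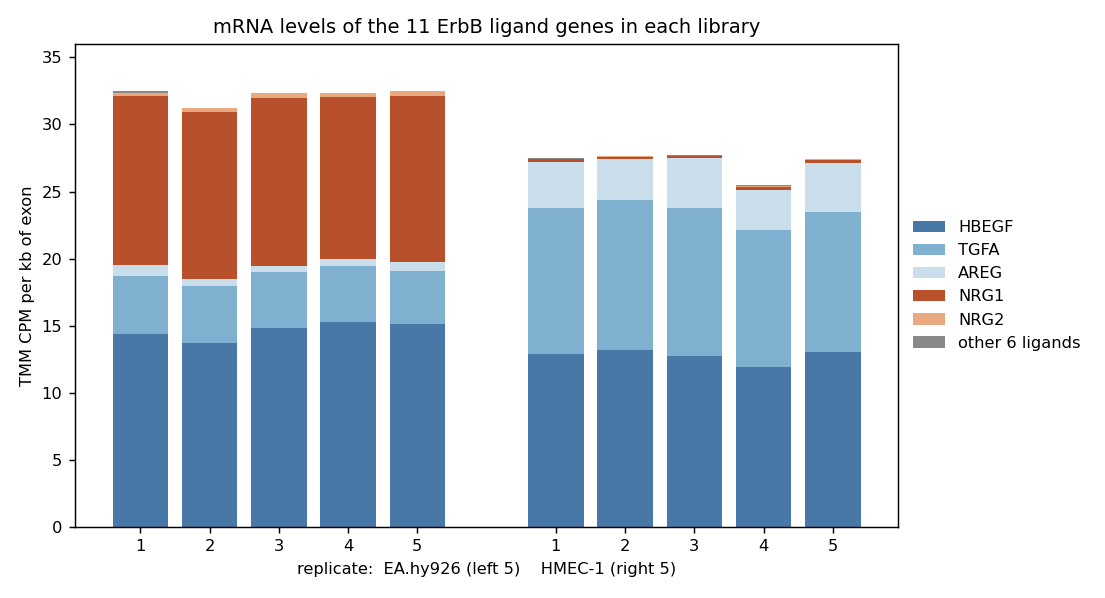
Stacked levels (TMM-scaled CPM per kilobase of exon, from 0) of the 11 ErbB ligand genes in each of the 10 libraries, with EA.hy926 replicates 1 to 5 on the left and HMEC-1 replicates on the right. HBEGF is similar in all bars, NRG1 fills 37.5 to 40.0% of each EA.hy926 bar, and TGFA and AREG fill most of the rest in HMEC-1.

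Taken per kilobase of exon, the 11 ErbB ligand genes summed to 31.2 to 32.5 CPM per kilobase in the EA.hy926 libraries and 25.6 to 27.7 in the HMEC-1 libraries, but their make-up differed. In EA.hy926 the sum consisted of HBEGF (45.5 ± 1.42%, SD, n = 5), NRG1 (38.6 ± 0.892%), TGFA (13.0 ± 0.558%) and AREG (1.82 ± 0.434%). In HMEC-1 it consisted of HBEGF (46.9 ± 0.731%), TGFA (39.7 ± 0.839%), AREG (12.3 ± 1.02%) and NRG1 (0.691 ± 0.0548%). By the union of exons HBEGF thus held a similar share in both lines. With the length of the longest transcript its share was 40.4 ± 1.35% in EA.hy926, against 47.6 ± 0.758% in HMEC-1, without overlap between the lines. Most of the rest was NRG1 in EA.hy926 and TGFA and AREG in HMEC-1. The union of NRG1 exons is long (21372 bases), and with the length of the longest transcript the NRG1 share in EA.hy926 was 46.2 ± 0.950% and that of HBEGF 40.4 ± 1.35%, so which of them led in EA.hy926 depended on the length used.

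Of the 7 tested genes for ligand release 2 were called, both lower in EA.hy926, beside 35.5% of all genes called and 16.4% called lower. The sheddases ADAM17 (log2FC -0.05, edgeR-adjusted p = 0.107) and ADAM10 (log2FC -0.41 ± 0.023 SE, edgeR-adjusted p = 4.4e-13) were both well expressed, with 61.7 ± 1.68 and 245 ± 4.44 CPM in EA.hy926. The iRhom genes that carry ADAM17 to the surface had log2FC values of 0.37 (RHBDF1, edgeR-adjusted p = 2.5e-09) and -0.09 (RHBDF2, edgeR-adjusted p = 0.0527), and FRMD8, which stabilizes the iRhom complex, one of 0.50 (edgeR-adjusted p = 7.4e-12). The called genes were ADAM9, with 380 ± 11.6 CPM against 840 ± 11.2 CPM (log2FC -1.14 ± 0.025 SE, edgeR-adjusted p = 1.9e-20), and ADAM12, with 6 to 15 counts per library against 41 to 62 (log2FC -2.18 ± 0.22 SE, edgeR-adjusted p = 6.1e-09). The rhomboid protease gene RHBDL2 had 0 or 1 counts in EA.hy926, while HMEC-1 had 5 to 20, at least 3.72-fold higher in HMEC-1, and did not pass the filter. The median log2FC of the list was -0.09, beside -0.01 for all genes tested.

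Of the ERK feedback genes, DUSP6 and SPRY4 were several times higher in EA.hy926, while SPRY2 was nearly level. DUSP6 (ENSG00000139318, chromosome 12, 89347235 to 89352501), the cytoplasmic phosphatase of ERK, had 84.0, 69.0, 71.2, 72.3 and 67.0 CPM in EA.hy926, while HMEC-1 had 15.3, 17.0, 15.7, 14.6 and 12.9 CPM. Even the lowest EA.hy926 library had over 3 times the level of the highest HMEC-1 library. DUSP6 was 4.81-fold higher in EA.hy926 (log2FC 2.27 ± 0.063 SE, edgeR-adjusted p = 1.3e-18). A long non-coding RNA gene on the other strand, ENSG00000274021, covers 28.6% of the exonic bases of DUSP6 and had 0 to 7 counts per library, and as it is not given whether counting used the strand, reads from the shared bases may have been left out of the DUSP6 counts.

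SPRY4 (ENSG00000187678, chromosome 5, 142310427 to 142326455), a Sprouty inhibitor of the path from receptor to ERK, had 321, 266, 261, 278 and 268 counts in EA.hy926, while HMEC-1 had 39, 55, 70, 48 and 36 counts. All EA.hy926 libraries lay far above all HMEC-1 libraries. In CPM this was 7.72 ± 0.632 (SD, n = 5) against 1.22 ± 0.221 (SD, n = 5), 6.26-fold higher in EA.hy926 (log2FC 2.65 ± 0.11 SE, edgeR-adjusted p = 2.1e-15). SPRY2 (ENSG00000136158, chromosome 13, 80335976 to 80341126), a Sprouty paralog, had 19.7, 18.2, 21.0, 20.7 and 22 CPM in EA.hy926, while HMEC-1 had 22.6, 23.1, 22.5, 21.6 and 23.9 CPM. The ranges of the lines overlapped, and the log2FC was -0.16 ± 0.049 SE (edgeR-adjusted p = 0.00454), a direction opposite to that of SPRY4.

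The wider set of ERK feedback genes also held genes of both directions. Of 9 further genes 8 were tested, and 5 were called, 3 higher and 2 lower in EA.hy926 (35.5% of all genes were called, 19.1% higher and 16.4% lower). DUSP4, a nuclear phosphatase of ERK, had 421, 377, 388, 374 and 370 CPM in EA.hy926, while HMEC-1 had 41.6, 40.8, 37.5, 38.6 and 34.1 CPM, which put the log2FC at 3.33 ± 0.046 SE (edgeR-adjusted p = 8.4e-24). SPRY3 (log2FC 1.49 ± 0.14 SE, edgeR-adjusted p = 3.1e-09) and SPRED3, of the Sprouty-related family that blocks RAF activation (log2FC 1.66 ± 0.052 SE, edgeR-adjusted p = 9.9e-18), were also called higher. The called lower genes belonged to the same families. SPRED2 had 3.76 ± 0.426 CPM in EA.hy926, while HMEC-1 had 21.9 ± 0.899 CPM (log2FC -2.54 ± 0.067 SE, edgeR-adjusted p = 4.9e-19), and SPRY1 had 2.75 ± 0.344 and 7.24 ± 0.539 CPM (log2FC -1.40 ± 0.094 SE, edgeR-adjusted p = 7.5e-12). DUSP7, another cytoplasmic ERK phosphatase, had a log2FC of 0.43, DUSP5, a nuclear one, -0.60 and SPRED1 -0.09, all under the fold change threshold, and DUSP9 had 0 to 8 counts per library. Thus the Sprouty, SPRED and DUSP families each held members that were higher in one line and members that were higher in the other at an adjusted p under 0.05, and the median log2FC of the 8 tested genes was 0.17.

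**Figure D3:**
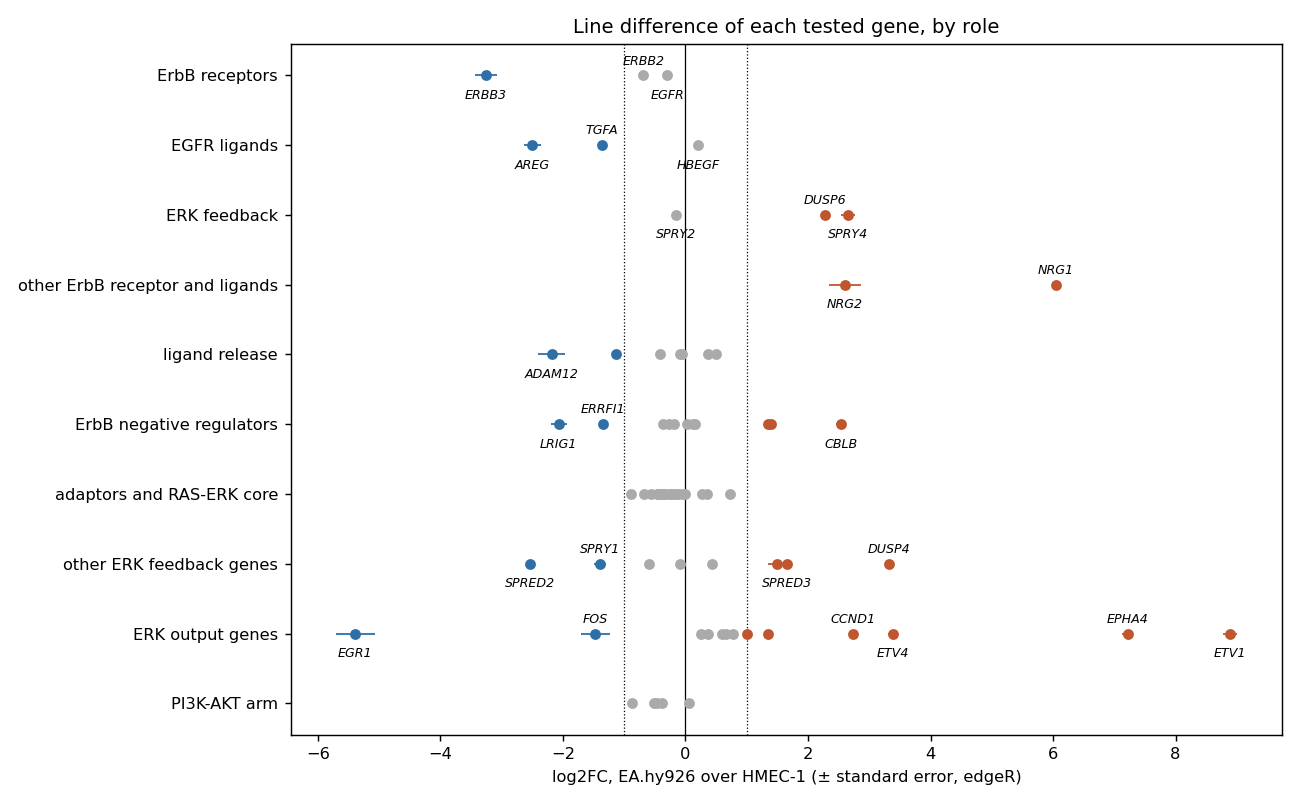
The log2FC of every tested gene of the ErbB, ligand release, RAS-ERK and PI3K-AKT lists (horizontal axis, EA.hy926 over HMEC-1, bars are ± 1 standard error) in rows by role. Points are orange where called higher and blue where called lower in EA.hy926, grey otherwise, with dotted lines at the fold change threshold. The marker lists and the glucocorticoid target list are not drawn. The RAS-ERK core and the PI3K-AKT arm hold no called gene with the TMM factors used here, while the feedback and output rows spread from -5.39 (EGR1) to 8.89 (ETV1).

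The ERK output genes, transcripts known to follow ERK activity, also moved in both directions, with 13 of 14 genes tested, 6 called higher (19.1% of all genes) and 2 called lower in EA.hy926 (16.4% of all genes) and a median log2FC of 0.78. By the adjusted p alone 11 were higher and 2 lower, beside 6940 higher and 7057 lower of all 16310 genes tested. The ETS factor genes ETV1 and ETV4 and the ephrin receptor gene EPHA4 had the highest values. ETV1 had 1824 to 2044 counts per EA.hy926 library, while HMEC-1 had 1 to 9 (log2FC 8.89 ± 0.12 SE, edgeR-adjusted p = 1.1e-23), EPHA4 1221 to 1492 and 7 to 14 (log2FC 7.22 ± 0.092 SE, edgeR-adjusted p = 2.2e-24), and ETV4 28.2 ± 0.723 and 2.68 ± 0.532 CPM (log2FC 3.38 ± 0.080 SE, edgeR-adjusted p = 8.6e-20). CCND1, which encodes cyclin D1, had 761 ± 18.7 and 114 ± 4.26 CPM (log2FC 2.73 ± 0.029 SE, edgeR-adjusted p = 1.4e-25) and EPHA2, the gene of another ephrin receptor, a log2FC of 1.35 ± 0.025 SE (edgeR-adjusted p = 1.2e-21). These 2 genes were chosen after their values were seen. FOSL1, an AP-1 subunit gene, was at the threshold (log2FC 1.01 ± 0.040 SE, edgeR-adjusted p = 8.0e-16), and library totals put it under (0.87), as did leaving out EA.hy926 replicate 3 (0.99) or 5 or HMEC-1 replicate 3 (0.99), 4 or 5 (0.97).

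The lower genes among the ERK outputs were the immediate early genes EGR1 and FOS, which ERK induces within minutes of stimulation. EGR1 had 1.16, 1.27, 1.25, 0.937 and 0.512 CPM in EA.hy926, while HMEC-1 had 46.8, 59.5, 43.7, 16.4 and 48.5 CPM. The HMEC-1 libraries spread widely, with replicate 4 well below the others, and still every one lay over 10 times above the EA.hy926 libraries (log2FC -5.39 ± 0.32 SE, edgeR-adjusted p = 9.7e-13). FOS had 16 to 40 counts per EA.hy926 library, while HMEC-1 had 49 to 129, where replicate 4 was again the lowest (log2FC -1.47 ± 0.24 SE, edgeR-adjusted p = 6.7e-06). Other immediate early genes of the list were higher in EA.hy926 by less than the fold change threshold, with a log2FC of 0.26 for IER3 (edgeR-adjusted p = 4.1e-06) and 0.66 for KLF10 (edgeR-adjusted p = 7.3e-14), which were named after their values were seen.

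The kinase cascade between receptors and outputs showed no called gene with TMM factors, and 1 with library totals, the adaptor gene GAB1 (log2FC -0.89, and -1.03 with library totals), named after its values were seen. All 18 genes listed for the adaptors and the RAS-ERK core were tested, and 0 passed both thresholds in edgeR, where 35.5% of all genes did. DESeq2 and limma-voom called 0 as well, 17 had an unadjusted p under 0.05, and the median log2FC was -0.29. When the adjusted p alone is read, 3 lay above and 13 below HMEC-1, beside 6940 above and 7057 below of all 16310 genes tested. The 3 higher genes, named after their values were seen, were the scaffold gene KSR1 (log2FC = 0.72), the MEK gene MAP2K2 (0.35) and the RAS GTPase activator gene RASA1 (0.27). The PI3K-AKT arm likewise had 0 called genes in edgeR (35.5% of all genes were), in DESeq2 and in limma-voom among 5 tested. An unadjusted p under 0.05 was found for 4 of the 5. Of these 5, 4 were lower at an adjusted p under 0.05 alone, as were 7057 of all 16310 genes tested. The 4 genes were PIK3R1 (log2FC = -0.87, called with library totals at -1.01), PIK3CB (-0.51), PIK3CA (-0.47) and AKT2 (-0.38). AKT1 had a log2FC of 0.05 (edgeR-adjusted p = 0.128) that turned to -0.09 with library totals, and PIK3R2, with 76.4% of its exonic bases covered by other genes, had 0 to 2 counts.

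Of 12 genes listed here as negative regulators of the ErbB receptors 11 were tested, and CBLC had 0 counts in all libraries. Of these 11, 3 were called higher and 2 lower in EA.hy926, a share near the 35.5% of all genes. Whether each listed gene restrains the receptors in these lines was not measured. The ubiquitin ligase gene CBLB, whose product marks EGFR for degradation, had 25.2 ± 1.76 CPM in EA.hy926, while HMEC-1 had 4.33 ± 0.725 CPM (log2FC 2.54 ± 0.081 SE, edgeR-adjusted p = 1.5e-17). SH3KBP1, an adaptor in receptor endocytosis, and LRIG3, a transmembrane protein gene of the LRIG family, were higher as well, with log2FC values of 1.40 and 1.35. ERRFI1, the feedback inhibitor that binds the EGFR kinase domain, had 33.7 ± 1.27 CPM against 85.9 ± 2.95 CPM (log2FC -1.35 ± 0.034 SE, edgeR-adjusted p = 2.0e-19), and it is also one of the glucocorticoid target genes described above. LRIG1, which promotes loss of ErbB receptors, had 25 to 37 counts per EA.hy926 library, while HMEC-1 had 114 to 151 (log2FC -2.07 ± 0.13 SE, edgeR-adjusted p = 1.7e-12), with 37.9% of its exonic bases covered by other genes. The median log2FC of the 11 genes was 0.02.

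**Figure D4:**
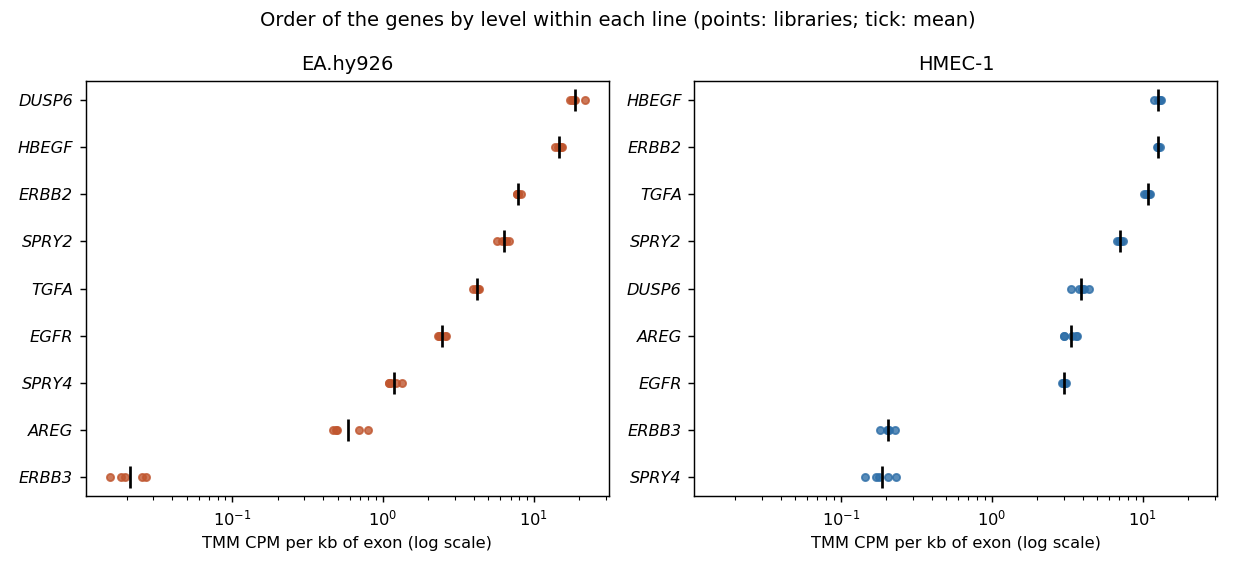
Levels within each line (horizontal log axis, TMM-scaled CPM per kilobase of exon) of 9 of the 10 genes in descending order, with points for the 5 libraries and ticks for the mean. EREG holds libraries at 0 and is left out. DUSP6 leads in EA.hy926 and lies in the middle in HMEC-1, where the points of several neighbours overlap.

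Within EA.hy926 the order of the levels per kilobase of exon was DUSP6 (18.8 ± 1.72, SD, n = 5), HBEGF (14.7 ± 0.633), ERBB2 (7.88 ± 0.201), SPRY2 (6.32 ± 0.445), TGFA (4.17 ± 0.144), EGFR (2.44 ± 0.134), SPRY4 (1.18 ± 0.0963), AREG (0.587 ± 0.145), ERBB3 (0.0211 ± 0.00479) and EREG. No neighbours in this order overlapped over the 5 libraries. Within HMEC-1 the order was HBEGF (12.7 ± 0.477), ERBB2 (12.7 ± 0.220), TGFA (10.8 ± 0.407), SPRY2 (7.08 ± 0.256), DUSP6 (3.91 ± 0.387), AREG (3.35 ± 0.321), EGFR (3.02 ± 0.0699), ERBB3 (0.205 ± 0.0171), SPRY4 (0.186 ± 0.0338) and EREG. HBEGF and ERBB2, DUSP6 and AREG, AREG and EGFR, and ERBB3 and SPRY4 overlapped and were not told apart. With the length of the longest transcript, DUSP6 and HBEGF overlapped in EA.hy926 while in HMEC-1 ERBB2 led without overlap, ERBB3 and SPRY4 no longer overlapped, and EGFR, AREG and DUSP6 followed each other in that order, neighbours overlapping.

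Set against all genes, the differences were moderate. By the absolute log2FC among 16310 genes, ERBB3 ranked 1959, SPRY4 2374, AREG 2492, DUSP6 2737 and TGFA 4350, whereas ERBB2, EGFR, HBEGF and SPRY2 ranked 7885, 12004, 13319 and 13970. None of the 10 was among the tenth of genes with the largest absolute log2FC, under the filter used here.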

How the data were processed

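mRNA was selected with oligo(dT) beads from 5 cultures each of EA.hy926 and HMEC-1 cells and sequenced on an Illumina NovaSeq instrument. HISAT2 was used by the authors for alignment to GRCh38, and they deposited raw counts per Ensembl gene. The paper names HTSeq as the counter and the submitters' processing notes name featureCounts, besides fastp and DESeq2, and versions, annotation release and strand setting are not given in the sources used here. With unstranded counting, a gene and its antisense partner cannot be separated.

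Symbols, coordinates and exon lengths came from GENCODE 44, which matched 56434 of 60448 identifiers. In edgeR 4.0.16 (R 4.3.3), low genes were removed by filterByExpr at a minimum count of 10 and a total of 15, TMM factors (0.9425 to 1.052) were applied, and all 10 libraries entered glmQLFit and glmQLFTest without covariates. The study used limma, which was run here as an alternative (limma-voom, limma 3.58.1), as were DESeq2 1.42.0, other filters and factors, a replicate block, glmTreat and each library left out. The standard error is the absolute log2FC over the square root of F. CPM per kilobase used the union of exons, and overlaps were found with bedtools 2.31.1. Total counts ran from 33391640 to 43877224, and no pair of libraries agreed within sampling noise. The tests were tried on simulated counts. The 10 genes, the lists and the tests were chosen with earlier results of these data known. Some pathway genes are not reported here and were left out of the list counts. Named were the 10 genes, every gene of the lists of up to 9 genes, and of longer lists the called genes with the 3 highest and 3 lowest log2FC. CCND1, EPHA2, GAB1, IER3, KLF10, KSR1, MAP2K2, RASA1, CBLC and the genes of the marker lists were named after their values were seen.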

Additional observations from a re-analysis of the deposited data

Results flagged for a closer look

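In 9 of the 110 groups of 5 libraries looked at, 1 library stood apart from the other 4, where chance gives about 1 in 20. None of them was a group of the 10 ErbB and ERK feedback genes. In EA.hy926, replicate 1 stood apart for BTC (0.190 CPM, others 0 to 0.0301), NRG4 (0.244 CPM, others 0 to 0.0603) and ADAM9 (360 CPM, others 382 to 390), replicate 2 for RHBDF1 (44.5 CPM, others 48.6 to 50.3) and ERRFI1 (31.6 CPM, others 33.9 to 34.8), replicate 3 for KSR1 (60.5 CPM, others 55.3 to 56.2) and replicate 5 for SPRY1 (2.16 CPM, others 2.78 to 3.01). In HMEC-1, replicate 2 stood apart for NRG1 (3.60 CPM, others 4.06 to 4.17) and replicate 3 for RHBDF2 (19.9 CPM, others 18.7 to 19.0). BTC and NRG4 rest on 9 counts or fewer per library.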

How the results depend on the processing

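The log2FC of the 9 tested ErbB and ERK feedback genes kept its direction, and each gene its call under both thresholds together, in all 161 values computed under the alternatives, and the number called was 5 in edgeR, DESeq2, limma-voom and with the replicate block. By p alone HBEGF did not pass with library totals, and ERBB3 had too few counts to be tested when each library had to hold 10. The number of all genes called, 5784, was 9268 without a filter (5021 higher, 4247 lower). It was 3255 when each library had to hold 10 counts (1857 higher, 1398 lower). Under the latter filter 3 of the 10 genes were among the tenth with the largest absolute log2FC instead of 0. That filter leaves out every gene with under 10 counts in any library. With library totals, 52.3% of the called genes were lower in EA.hy926 instead of 46.2%, AKT1 turned to -0.09, and GAB1 and PIK3R1 were called. Of the ligand release genes 1 was called when each library had to hold 10 counts, since ADAM12 was not tested. Same-numbered replicates did not deviate together (correlations of -0.0228 to 0.0389), EA.hy926 replicates 3 and 4 alone correlated best with their own number, and the replicate block, with 5786 genes called, moved no count of calls by over 1.5 times. FOSL1 was not called with glmTreat of edgeR (adjusted p = 0.532). The summed level per kilobase was 10.3 in EA.hy926 and 15.9 in HMEC-1 for the 3 receptors and 19.4 and 26.9 for the 4 ligands. With the longest transcript these were 20.5, 31.8, 24.3 and 33.5, and with library totals 9.87, 16.7, 18.5 and 28.1, so HMEC-1 was higher in each. The shares by transcript length were added after seeing the data. Low counts limit ERBB3 and AREG in EA.hy926 and SPRY4 in HMEC-1, and EREG was at the limit of detection.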
